A study of Mus musculus with 24 samples.

Results

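The genes of the hair shaft and of the sheath that surrounds it were examined in mouse skin after proton irradiation. They were taken as every gene whose GENCODE M21 symbol begins with Krtap, which encode keratin-associated proteins, together with a list of 19 named genes, of which 18 were analysed here and the remaining gene was not analysed here. This gave 76 genes, 58 Krtap genes and 18 listed genes, of the 55471 genes in the deposited tables. There were 4 skin libraries labelled F-PRT, 4 labelled S-PRT and 4 labelled Untreated, and 12 bone libraries carried the same 3 labels. The labels do not spell these out; F-PRT is taken to mean FLASH proton radiotherapy, in which protons are delivered at an ultra-high dose rate, and S-PRT standard proton radiotherapy at the conventional rate. All animals were female and 10 weeks old, and the series title places them in a mouse sarcoma model. Strain, dose, time after irradiation, body site and stage of the hair cycle are not given in the labels. The series title asks how expression after F-PRT differs from that after S-PRT, and Untreated skin served as the common baseline of both. Libraries of a group are named biological replicates in the labels, which do not say whether each came from its own mouse, and n = 4 for each group mean.

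A growing hair is built in the bulb of the follicle, where matrix cells differentiate into concentric layers. The outer layers form the inner root sheath, a rigid sleeve of keratins cross-linked to trichohyalin that moulds the shaft. The inner layers form the shaft itself, in which hair keratins assemble into filaments that are embedded in keratin-associated proteins rich in cysteine (high sulfur and ultra-high sulfur families) or in glycine and tyrosine. These genes are transcribed mainly while a follicle is in anagen, the growth phase of its cycle, and little or not at all in the resting phase. By role the set held 9 inner root sheath genes, 7 hair keratins, 2 transcription factors of the hair lineage, and 20 high sulfur, 20 ultra-high sulfur and 18 high glycine-tyrosine Krtap genes, the Krtap classes being assigned by family number.

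Depth, as the sum of expected counts in megacounts, was 16.42 to 22.09 in the skin libraries and 10.91 to 17.36 in the bone libraries. Levels are given per library as TPM, a unit that corrects for gene length and library size, with the expected counts behind them where these are low. The skin identity of the libraries was visible in 8 markers of the epidermis between the follicles, whose summed TPM was 6143 to 7907 in F-PRT, 2505 to 8761 in S-PRT and 4005 to 10710 in Untreated libraries. Among the skin libraries, 3 stood apart. S-PRT 1 carried a summed 10610 TPM of 10 skeletal muscle genes, against 3.73 to 2570 TPM in the other skin libraries. S-PRT 4 carried 59.17 TPM of 6 dermal fibroblast genes and 1.09 TPM of 6 endothelial genes, where the other S-PRT libraries held 1117 to 1141 and 35.66 to 45.25 TPM. Untreated 1 differed from the other Untreated libraries over all genes by a chi-square of 211 to 228 per degree of freedom, against 24.6 to 33.3 among those, and held 10710 TPM of the epidermal markers, where they held 4005 to 4607 TPM.

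Most of the genes sit in a few dense clusters (coordinates on GRCm38). The Krtap genes lie on chromosome 11 (23 genes, 99550130 to 99993994), chromosome 16 (25 genes, 88610705 to 89571183), chromosome 7 (5 genes, 142174535 to 142304594), chromosome 10 (3 genes, 77720599 to 77837252) and chromosome 1 (2 genes, 83041524 to 83061921). The Krtap cluster of chromosome 11 stands between the type I inner root sheath and type I hair keratin genes, which span 99315516 to 100096241 with 8 keratins. The type II keratins occupy chromosome 15 (6 genes, 101459061 to 101802346). All 17 high glycine-tyrosine genes outside chromosome 11 are on chromosome 16. On chromosome 11 there is 1, Krtap16-1, placed in this class by family number alone. Because these families arose by duplication, RSEM had to divide reads among similar genes: 44 of the 76 genes share over 10% of their 31-base words with another gene, 6 share over 50%, and 13 share none.

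RefSeq promoter windows (GRCm38.p6, 250 bases before to 50 bases after the annotated start) were found for 65 of the 76 genes. The word TATAAA, searched on both strands, stood in 52 of these 65 windows (80.0%), against 13.6% of all 32851 windows in the table. The word CTTTGA, the core recognised by LEF and TCF factors, stood in 20 of the 65 (30.8%), against 16% of all windows. A match is a description of these letters and not evidence that a factor binds. The 120 bases before the RefSeq start are printed for 7 genes that the results below turn on, 5′ to 3′ in the direction of transcription, with TATAAA in capitals.
Krt26 (chr11:99337966-99338085, minus strand): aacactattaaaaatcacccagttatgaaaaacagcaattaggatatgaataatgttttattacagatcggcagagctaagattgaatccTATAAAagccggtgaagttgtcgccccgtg
Krt71 (chr15:101743098-101743217, minus strand): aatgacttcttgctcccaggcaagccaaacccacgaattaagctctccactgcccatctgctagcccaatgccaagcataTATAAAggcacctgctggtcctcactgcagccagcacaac
Krt34 (chr11:100041555-100041674, minus strand): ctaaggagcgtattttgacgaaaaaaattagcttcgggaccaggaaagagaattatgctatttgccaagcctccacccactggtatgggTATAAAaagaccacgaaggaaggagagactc
Krtap3-1 (chr11:99566631-99566750, minus strand): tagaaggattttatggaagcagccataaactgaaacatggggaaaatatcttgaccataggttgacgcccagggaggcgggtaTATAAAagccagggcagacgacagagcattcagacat
Krtap3-2 (chr11:99556854-99556973, minus strand): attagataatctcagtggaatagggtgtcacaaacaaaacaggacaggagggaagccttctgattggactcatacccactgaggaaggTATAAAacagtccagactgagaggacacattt
Krtap22-2 (chr16:89010760-89010879, minus strand): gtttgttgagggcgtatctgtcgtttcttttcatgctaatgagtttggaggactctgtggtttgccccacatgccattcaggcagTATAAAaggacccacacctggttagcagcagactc
Krtap4-1 (chr11:99628240-99628359, minus strand): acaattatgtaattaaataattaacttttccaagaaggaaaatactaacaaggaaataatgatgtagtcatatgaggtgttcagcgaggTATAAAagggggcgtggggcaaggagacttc
In these 7 genes TATAAA begins 30 to 40 bases before the start. The neighbouring genes Krtap3-1 and Krtap3-2, whose levels differed widely as described below, have the word at 37 and 32 bases before the start. Compared position by position without gaps, their 120 bases were identical at 31 positions (25.8%).

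The set was transcribed at very unequal levels in the 12 skin libraries, and the inequality followed single libraries more than the treatment labels. Summed over the 76 genes, the level was 35.18, 41.33, 45.79 and 99.79 TPM in the F-PRT libraries. The S-PRT libraries held 2082, 26.35, 54.02 and 99.82 TPM. The Untreated libraries held 38.84, 17.55, 32.33 and 21.64 TPM. S-PRT 1 therefore stood 51.9 times above the median of the 12 libraries, and without it the highest library stood 2.57 times above the median. In expected counts the genes received 49741 in S-PRT 1, 5201 in S-PRT 4 and 3206 in F-PRT 4, and between 706 and 1628 in each of the other 9. S-PRT 1 had a count for 75 of the 76 genes, while Untreated 2 had a count for 17. From tissue RNA, fewer cells of a type and less RNA per cell cannot be told apart. In the 12 bone libraries the same genes received 42 to 84 counts in all.

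**Figure D1:**
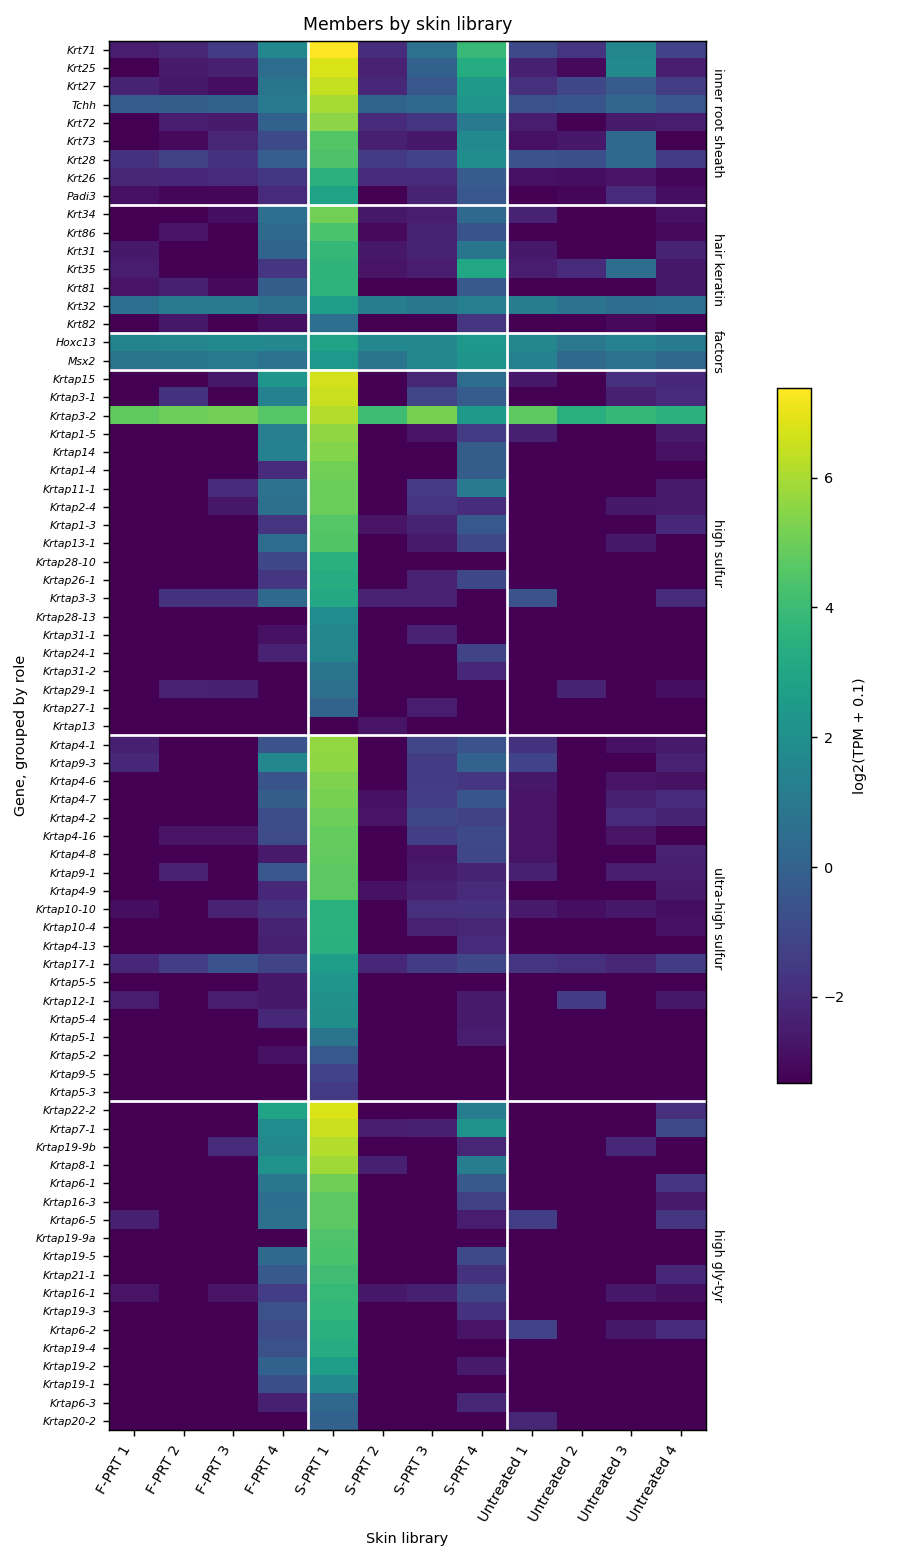
Heat map of the 76 genes (rows, grouped by role and ordered within a role by their level in S-PRT 1) in the 12 skin libraries (columns), coloured by log2(TPM + 0.1). S-PRT 1 holds the brightest cell of 75 of the 76 rows, F-PRT 4 and S-PRT 4 are next, and Krtap3-2, Krt32, Hoxc13 and Msx2 (labelled factors at the side) are coloured in every column.

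The high level in S-PRT 1 ran through the whole set rather than through a few genes. Of the 76 genes, 75 had their highest TPM there, and 70 reached at least 1 TPM there. The exception was Krtap13, listed at 0.05 TPM in S-PRT 2 and at 0 elsewhere. The share of all genes highest in S-PRT 1 is not given here. In other lists, 10 of 10 skeletal muscle, 9 of 10 melanocyte, 10 of 18 growth regulator and 0 of 10 cell division genes were highest there. The count of genes highest in S-PRT 1 holds for TPM and depends on the unit. In CPM, counts scaled to library size by TMM, Krt35 was higher in S-PRT 4 than in S-PRT 1. The same held for the sum of Hoxc13 and Msx2. The library of the second highest TPM was F-PRT 4 for 34 genes, S-PRT 4 for 30 genes and another library for 7 genes. A further 4 genes (Krtap5-3, Krtap9-5, Krtap19-9a and Krtap28-13) had no count outside S-PRT 1; a count of 0 allows up to 3 counts, a 1-sided limit for counting error only. Outside S-PRT 1, S-PRT 4, F-PRT 4 and Untreated 3, 70 of the 76 genes stayed under 1 TPM. The exceptions were Krt32, Krt71, Krtap3-2, Tchh, Hoxc13 and Msx2.

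Inner root sheath genes were abundant in S-PRT 1, lower in S-PRT 4, and lower again in F-PRT 4 and Untreated 3. Their summed level was 1.29, 1.59, 1.84 and 10.57 TPM in the F-PRT libraries, 530.4, 2.0, 5.12 and 45.5 TPM in the S-PRT libraries, and 1.94, 1.84, 10.69 and 1.72 TPM in the Untreated libraries. Each group thus held at least 1 library above 10 TPM, and the 3 groups overlapped. Krt71 (ENSMUSG00000051879, chromosome 15, 101733949 to 101743109), a type II keratin of the sheath layers, was at 0.08, 0.12, 0.27 and 3.05 TPM in F-PRT, at 166.2, 0.16, 1.52 and 14.86 TPM in S-PRT, and at 0.42, 0.21, 2.92 and 0.34 TPM in Untreated skin. Its type I counterpart Krt25 was at 0, 0.07, 0.09 and 1.28 TPM in F-PRT, at 108.0, 0.1, 0.9 and 9.85 TPM in S-PRT, and at 0.09, 0.02, 3.37 and 0.08 TPM in Untreated skin. Both keratins were above 1 TPM in S-PRT 1, S-PRT 4, F-PRT 4 and Untreated 3, and elsewhere Krt71 passed 1 TPM in S-PRT 3 and Krt25 in none.

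Krt27, another type I sheath keratin, reached 86.9 TPM in S-PRT 1 and 5.32 TPM in S-PRT 4, against at most 1.68 TPM in F-PRT and 0.74 TPM in Untreated libraries. Krt28, also of type I, reached 20.61 and 3.71 TPM in the same S-PRT libraries, 0.82 TPM in F-PRT 4 and 1.17 TPM in Untreated 3. The type II keratins Krt72 and Krt73, known in human hair from the cuticle of the sheath, reached 45.47 and 22.43 TPM in S-PRT 1. In Untreated 3 these cuticle keratins parted: Krt73 stood at 1.17 TPM and Krt72 at 0.07 TPM. Tchh, the trichohyalin gene whose product hardens the sheath, was at 0.75, 0.78, 0.91 and 2.04 TPM in F-PRT, at 61.79, 0.99, 1.16 and 5.04 TPM in S-PRT, and at 0.53, 0.62, 1.05 and 0.64 TPM in Untreated skin. Padi3, the enzyme that converts arginines of trichohyalin to citrulline, was at 7.38 TPM in S-PRT 1, 0.65 TPM in S-PRT 4, 0.14 TPM in F-PRT 4 and 0.15 TPM in Untreated 3, and at 0.11 TPM or less elsewhere. All 9 sheath genes had S-PRT 4 as the library of their second highest level.

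**Figure D2:**
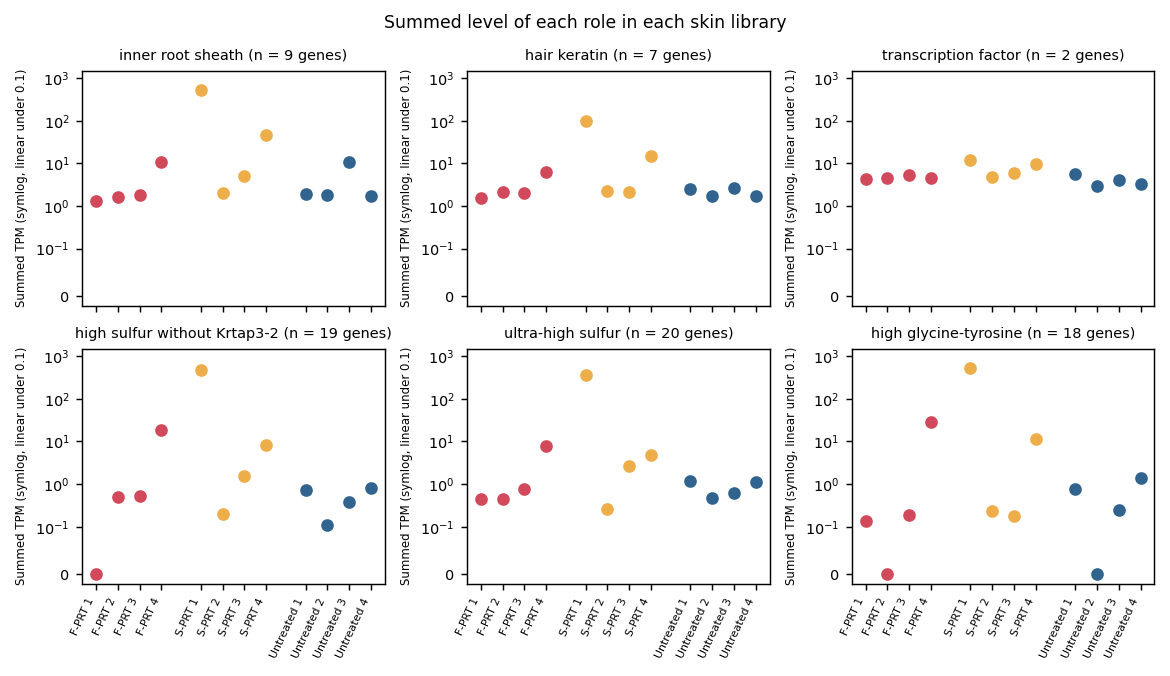
Summed TPM of each role (y axis, symmetric log scale that is linear below 0.1) in each skin library (x axis); red points are F-PRT, yellow S-PRT and blue Untreated libraries, and each point is 1 library. S-PRT 1 is highest in all 6 panels, with 530.4 TPM of inner root sheath and 531.3 TPM of high glycine-tyrosine genes. In CPM the transcription factor sum is higher in S-PRT 4 than in S-PRT 1. Untreated 3 stands out in the inner root sheath panel (10.69 TPM) but not in the Krtap panels.

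Hair keratins were summed highest in S-PRT 1, S-PRT 4 and F-PRT 4. Of the 7, 4 had their second highest level in S-PRT 4 and 3 (Krt34, Krt81 and Krt86) in F-PRT 4. Their summed level was 1.57, 2.15, 2.0 and 6.13 TPM in F-PRT, 100.5, 2.31, 2.1 and 15.25 TPM in S-PRT, and 2.49, 1.73, 2.6 and 1.7 TPM in Untreated libraries. Krt34 (ENSMUSG00000043485, chromosome 11, 100037347 to 100041554), a keratin of the shaft cortex in human hair, was at 0, 0, 0.03 and 1.42 TPM in F-PRT, at 34.07, 0.06, 0.08 and 1.16 TPM in S-PRT, and at 0.11, 0, 0 and 0.04 TPM in Untreated skin. It shares 42.0% of its 31-base words with Krt33a and similar genes, so its share of reads is uncertain. Krt31, Krt81 and Krt86, also cortex keratins in human hair, reached 13.97, 12.15 and 20.31 TPM in S-PRT 1, and stood between 0.58 and 1.67 TPM in S-PRT 4 and between 0.8 and 1.21 TPM in F-PRT 4. Krt82, a shaft cuticle keratin in human hair, was at 1.4 TPM in S-PRT 1 and at 0.21 TPM or less elsewhere.

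Krt35 and Krt32 had other patterns. Krt35 (chromosome 11, 100092193 to 100096241), known in human hair as the earliest type I keratin of the differentiating shaft, had 3, 0, 0 and 12 counts in F-PRT, 449, 2, 3 and 432 counts in S-PRT, and 4, 7, 59 and 3 counts in Untreated libraries. Per length this was 12.38 TPM in S-PRT 1 and 8.55 TPM in S-PRT 4, a ratio of 1.45, where Krt31 had a ratio of 8.37 and Krt34 of 29.4 between the same libraries. In CPM the order turned for Krt35, which was higher in S-PRT 4 than in S-PRT 1. Krt35 was also at 1.3 TPM in Untreated 3, where Krt34, Krt31, Krt81 and Krt86 were listed at 0. Krt32, a shaft cuticle keratin in human hair, was present in every library, at 1.38, 1.95, 1.95 and 1.46 TPM in F-PRT, 6.18, 2.12, 1.72 and 2.38 TPM in S-PRT, and 2.24, 1.58, 1.28 and 1.41 TPM in Untreated skin. An antisense gene, Gm11571, overlaps Krt32 and had 0 to 14 counts per library; whether the counting used strand is not given in the sources used here.

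Keratin-associated protein genes were almost absent from most libraries once Krtap3-2 was set aside. The other 57 Krtap genes summed to 0.6, 0.94, 1.5 and 54.86 TPM in F-PRT, to 1368, 0.69, 4.36 and 24.16 TPM in S-PRT, and to 2.65, 0.58, 1.27 and 3.33 TPM in Untreated libraries. F-PRT 4 was thus above S-PRT 4 for these shaft genes, whereas S-PRT 4 was above F-PRT 4 for the sheath genes. Untreated 3, the highest of its group for the sheath, was not high for the Krtap genes.

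Among high sulfur genes the leading ones were Krtap15 and Krtap3-1, which reached 101.4 and 92.04 TPM in S-PRT 1. Krtap15 was at 4.89 TPM in F-PRT 4 and 1.28 TPM in S-PRT 4, and at 0.18 TPM or less in the other 9 libraries; it overlaps Krtap14 on the opposite strand, so reads of the overlap may be shared. Krtap3-1 was at 2.48 TPM in F-PRT 4 and 0.77 TPM in S-PRT 4. Among ultra-high sulfur genes Krtap4-1, Krtap9-3 and Krtap4-6 reached 49.43, 46.41 and 39.15 TPM in S-PRT 1. Outside it their highest values were 0.57 TPM for Krtap4-1 in S-PRT 4, 3.08 TPM for Krtap9-3 in F-PRT 4 and 0.59 TPM for Krtap4-6 in F-PRT 4. Among high glycine-tyrosine genes, whose products form part of the matrix between keratin filaments, Krtap22-2, Krtap7-1 and Krtap19-9b reached 108.7, 91.97 and 70.02 TPM in S-PRT 1. In F-PRT 4 these stood at 7.48, 3.53 and 3.07 TPM, and in S-PRT 4 at 2.16, 4.31 and 0.12 TPM. The whole high glycine-tyrosine class was at 0.25 TPM or less in 7 libraries, and F-PRT 2 and Untreated 2 had no count for any of its 18 genes.

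The mixture of layers differed between the libraries with appreciable counts. Of the counts in sheath genes plus Krtap genes other than Krtap3-2, sheath genes made up 49.3% in F-PRT 4 (Wilson 95% interval 47.1 to 51.6), 60.6% in S-PRT 1 (60.1 to 61.0), 88.1% in S-PRT 4 (87.0 to 89.1) and 96.6% in Untreated 3 (95 to 97.7). These intervals do not overlap. They cover counting error only, since the reads carry no molecular identifiers and several can stem from the same molecule. Untreated 3 held only 22.88 of these Krtap counts. Its interval overlaps those of libraries with fewer sheath counts, such as Untreated 2 (93.9%, 89.4 to 96.6) and S-PRT 2 (93.9%, 90.2 to 96.5). In F-PRT 1 (92.7%, 87.3 to 95.9) Tchh alone supplied 110 of the 139 sheath counts. Within the Krtap counts, again without Krtap3-2, the high glycine-tyrosine class made up 34.2% in F-PRT 4 (31.2 to 37.3), 24.5% in S-PRT 1 (23.9 to 25.2) and 33.2% in S-PRT 4 (28.9 to 37.7). The ultra-high sulfur class made up 20.4% in F-PRT 4 (18.0 to 23.1), 37.0% in S-PRT 1 (36.3 to 37.7) and 25.5% in S-PRT 4 (21.5 to 29.7). With classes set by family number, S-PRT 1 thus held a larger ultra-high sulfur share and a smaller glycine-tyrosine share than F-PRT 4 and S-PRT 4. In S-PRT 3, the library next in Krtap counts with 82.32, the ultra-high sulfur share was 63.8% (53.8 to 74.1) and the glycine-tyrosine share 6.07% (2.63 to 13.5), further in the same direction. The other 8 libraries held under 66 Krtap counts each.

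Gene by gene, the level in S-PRT 1 was set against that in the other libraries for genes with at least 10 counts in the other library of the pair. Against S-PRT 4 the ratio had a median of 11.4 over 9 sheath genes (5.56 to 22.5), 8.37 over 7 hair keratins, 34.0 over 9 high sulfur, 64.2 over 4 ultra-high sulfur and 32.1 over 4 high glycine-tyrosine genes. Against F-PRT 4 it had a median of 51.7 over 9 sheath genes (25.1 to 84.3), 16 over 6 hair keratins, 20.6 over 10 high sulfur, 64.3 over 7 ultra-high sulfur and 18.9 over 11 high glycine-tyrosine genes. The genes behind these medians differ between the libraries. Among genes with at least 10 counts in both, all 9 sheath genes had the smaller ratio against S-PRT 4 (median 11.4, against 51.7 for F-PRT 4). Of 5 high sulfur genes 4 had the smaller ratio against F-PRT 4 (median 20.4, against 52.8 for S-PRT 4), while the 4 glycine-tyrosine genes divided into 2 and 2 and the 6 hair keratins into 3 and 3. Those 4 include Krtap16-1, placed in the class by family number alone, at 51.0 against F-PRT 4 and 36.6 against S-PRT 4. These are single libraries without replicates of their state, and the ratios are given as descriptions.

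**Figure D3:**
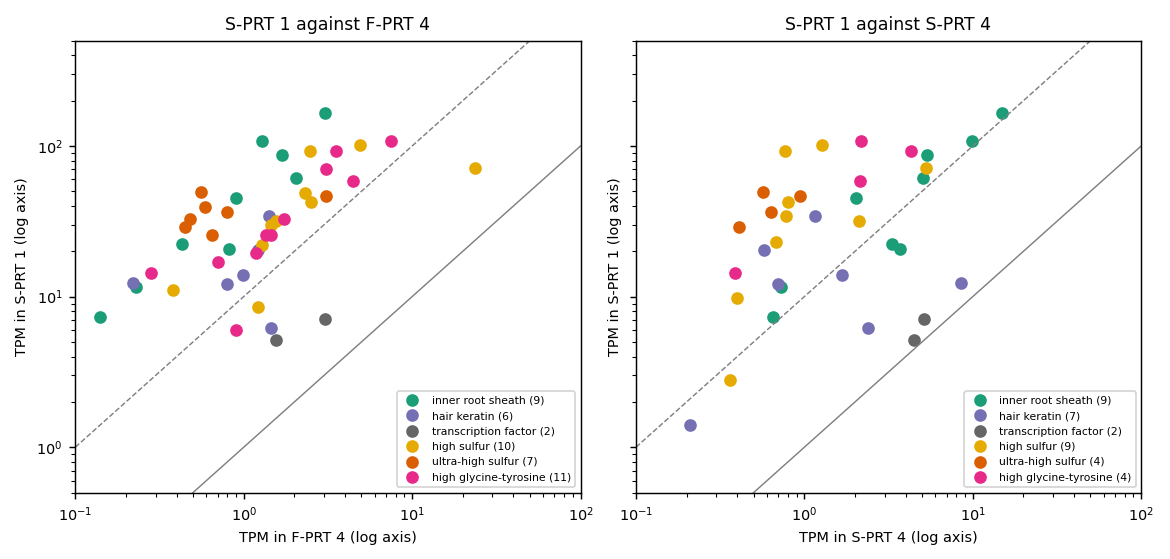
TPM in S-PRT 1 (y axis, log) against TPM in F-PRT 4 (left, x axis, log) and S-PRT 4 (right), for genes with at least 10 counts in the library on the x axis, coloured by role; the solid line marks equal levels and the dashed line a ratio of 10. Sheath genes (green) lie at 25.1 to 84.3 times the level of F-PRT 4 but at 5.56 to 22.5 times that of S-PRT 4, where Krt35 lies close to the solid line at a ratio of 1.45.

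Krtap3-2 was the exception among the Krtap genes. This high sulfur gene (ENSMUSG00000069721, chromosome 11, 99555823 to 99556853) was at 27.38, 32.11, 35.05 and 23.61 TPM in F-PRT, at 70.93, 16.59, 36.45 and 5.26 TPM in S-PRT, and at 26.23, 10.45, 13.67 and 11.65 TPM in Untreated skin. It was lowest in S-PRT 4, the library that held the second highest level of all 9 sheath genes. Its neighbour Krtap3-3 stood at 8.57 TPM in S-PRT 1 and at 1.21 TPM or less elsewhere, although Krtap3-2 shares 30.9% of its 31-base words with other genes, Krtap3-3 the closest. In expected counts Krtap3-2 had at least 140.88 in each skin library, whereas Krtap3-1 had 35.08 at most outside S-PRT 1. In CPM, counts scaled to library size by TMM, F-PRT averaged 34.8 ± 3.66 and Untreated 21.2 ± 6.18 (SD), and the scaled values did not overlap although the TPM did. The log2 difference was 0.72 (SE 0.44, adjusted p = 0.492, edgeR quasi-likelihood test over 19038 genes), which did not pass. It passed when the F-PRT and Untreated libraries were fitted alone (log2 0.72, SE 0.19, adjusted p = 0.0464) and in none of the other alternatives, where adjusted p was 0.0556 to 0.694. S-PRT averaged 32.4 ± 23.1 CPM, a log2 difference of 0.61 from Untreated skin (SE 0.44, adjusted p = 0.536), which did not pass. It was 0.11 without S-PRT 1 (adjusted p = 0.957), 0.94 without S-PRT 4 (0.0657) and 1.16 without S-PRT 4 and Untreated 1 (SE 0.31, adjusted p = 0.0218), of which the last alone passed.

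The transcription factors of the hair lineage varied far less than the structural genes. Hoxc13, which is needed for the expression of hair keratins, was at 2.72, 2.86, 3.32 and 3.06 TPM in F-PRT, at 7.09, 3.11, 3.03 and 5.15 TPM in S-PRT, and at 2.99, 1.77, 2.55 and 2.11 TPM in Untreated skin. Msx2, a homeobox factor needed for shaft differentiation, was at 1.62, 1.68, 2.08 and 1.56 TPM in F-PRT, at 5.16, 1.65, 2.96 and 4.5 TPM in S-PRT, and at 2.54, 1.18, 1.55 and 1.13 TPM in Untreated skin. Both were highest in S-PRT 1 and S-PRT 4, and the groups overlapped. In TPM they stood only 1.38 and 1.15 times higher in S-PRT 1 than in S-PRT 4, and 2.32 and 3.31 times higher than in F-PRT 4. In CPM the order of S-PRT 1 and S-PRT 4 turned, with a sum over both factors of 28.04 in S-PRT 1 and 40.23 in S-PRT 4. F-PRT 4, high for the Krtap genes, was not high for either factor.

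**Figure D4:**
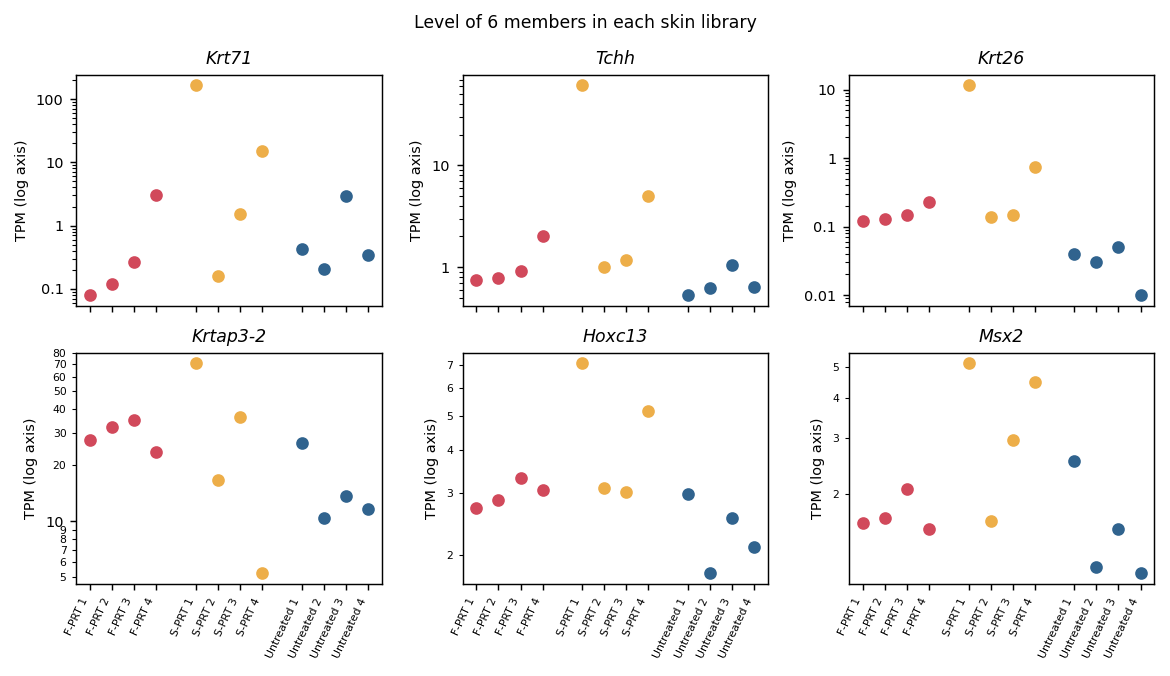
TPM (y axis, log scale) of Krt71, Tchh, Krt26, Krtap3-2, Hoxc13 and Msx2 in each skin library (x axis); red points are F-PRT, yellow S-PRT and blue Untreated libraries. Krt26 lies between 0.12 and 0.23 TPM in F-PRT and at 0.14 TPM or more in S-PRT, above the 0.01 to 0.05 TPM of the Untreated libraries, while Krtap3-2 is present in all libraries.

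F-PRT skin was compared with Untreated skin first. After the filter on low counts, which keeps genes with enough counts in at least as many libraries as a group holds, 13 of the 76 genes were tested: Krt25, Krt26, Krt27, Krt28, Krt71, Krt73, Tchh, Padi3, Krt32, Krt35, Hoxc13, Msx2 and Krtap3-2. The other 63, among them 57 Krtap genes, were not. None of the 13 passed at an adjusted p of 0.05 by the edgeR quasi-likelihood test (0 of 13, against 2.39% of the 19038 genes tested). At an unadjusted p under 0.05 there were 0, against 14.9% of all genes. DESeq2 called 0 of the 23 to which it gave an adjusted p, against 4.11% of all genes. The median log2 difference was -0.09 over the 13 and -0.02 over all genes tested, with 6 positive and 7 negative. The values of 2 genes, Krt26 and Krtap3-2, were higher in every F-PRT library than in any Untreated library in CPM, as was the case for 8.02% of all genes. Of these, Krt26 entered the test only through irradiated libraries. None (0) of the 13 were lower in every F-PRT library, against 8.14% of all genes. Krt71 averaged 2.75 ± 4.66 CPM across the F-PRT libraries, against 3.28 ± 4.4 CPM across the Untreated libraries, with SDs above the means (log2 -0.21, SE 1.61, adjusted p = 0.972). At this spread a difference smaller than a few SE was not detectable.

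In S-PRT skin against Untreated skin, 1 of the 13 genes passed, Krt26, against 4.34% of all genes. Krt26 passed the filter on low counts only through irradiated libraries, as its counts were 1 to 4 in Untreated libraries. Its call is therefore given as a description. All 13 differences were positive, with a median of log2 3.79 against 0.0 over all genes, and 12 had an unadjusted p under 0.05, against 16.8% of all genes. The S-PRT means of these genes are carried by S-PRT 1 and S-PRT 4, and the counts are given as a description. Tchh averaged 107 ± 169 CPM in S-PRT and 6.89 ± 2.5 CPM in Untreated skin (log2 3.96, SE 1.07, adjusted p = 0.0595). It passed with DESeq2 (adjusted p = 0.00301), with no filter (0.0434), without S-PRT 2, 3 or 4 (0.0313, 0.0345 and 0.0291) and without S-PRT 4 and Untreated 1 (0.044). Without S-PRT 1 the difference was log2 1.76 (adjusted p = 0.226), without S-PRT 1 and S-PRT 4 it was 0.28 (0.798), and with the replicate block 2.60 (0.324). Krt71 averaged 100 ± 162 CPM in S-PRT and 3.28 ± 4.4 CPM in Untreated skin (log2 4.94, SE 1.73, adjusted p = 0.147). DESeq2 called 7 of the 23 genes to which it gave an adjusted p (against 6.64% of all genes), Krt26, Krt27, Krt34, Krt71, Krt72, Krt81 and Tchh. Without S-PRT 1 and S-PRT 4, a choice made after the data were seen, the log2 difference was below 0 for 8 of the 13 genes: Krt25 (-1.17), Krt27 (-0.36), Krt28 (-1.34), Krt32 (-0.01), Krt35 (-3.02), Krt71 (-0.55), Krt73 (-2.33) and Padi3 (-0.20). Krt35 and Krt73, the furthest below 0, were among the genes high in Untreated 3.

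Krt26 (ENSMUSG00000075570, chromosome 11, 99328550 to 99337966), a type I sheath keratin, was higher in each of the 8 irradiated libraries than in any Untreated library. Its counts were 11, 11, 9 and 20 in F-PRT, 659, 13, 11 and 62 in S-PRT, and 2, 2, 4 and 1 in Untreated libraries. The Untreated counts were too few for the filter, so Krt26 entered the test only through the irradiated libraries, where it is high. The lowest irradiated library thus had 9 counts (exact Poisson 95% interval 4.12 to 17.1) and the highest Untreated library 4 (1.09 to 10.2), so that these libraries taken singly are not separated beyond counting error. S-PRT averaged 8.57 ± 14.0 CPM and Untreated 0.13 ± 0.0779 CPM, a log2 difference of 5.98 (SE 1.30, adjusted p = 0.0211, edgeR), and the groups did not overlap, as for 3.81% of all genes in this direction. None of the 13 (0) lay wholly below Untreated skin, against 5.37% of all genes. Without S-PRT 1 the difference was 3.56 (SE 0.73, adjusted p = 0.0245), and without S-PRT 1 and S-PRT 4 it was 2.18 (SE 0.54, adjusted p = 0.0352). Krt26 no longer passed when Untreated 2, 3 or 4 was left out (adjusted p = 0.0795, 0.0594 and 0.0639), with the S-PRT and Untreated libraries fitted alone (0.0951) and with the replicate number as a block (0.0662).

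F-PRT averaged 0.645 ± 0.192 CPM of Krt26, a log2 difference of 2.27 from Untreated skin (SE 1.38, adjusted p = 0.484), which did not pass. With S-PRT 1 and S-PRT 4 left out of the fit, which share in its estimate of the spread, the F-PRT difference was 2.26 (SE 0.47) and passed (adjusted p = 0.0153). That choice was made after the data were seen. In the planned fit of the F-PRT and Untreated libraries alone, Krt26 was not among the 8 members tested. Over the group the counts were 51 in F-PRT, 745 in S-PRT (24 without S-PRT 1 and S-PRT 4) and 9 in Untreated skin. Krt25 and Krt27, its neighbours of the same type, showed no such separation, with 0 to 4 counts of Krt25 in F-PRT 1, 2 and 3 and 1 to 5 counts in Untreated 1, 2 and 4. Krt26 shares 1.37% of its 31-base words with other genes. All the F-PRT and Untreated values are at or below 0.23 TPM, a level of few reads per library.

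Between the beams, F-PRT against S-PRT, 0 of the 13 genes passed by the edgeR quasi-likelihood test, as did 0% of all genes. DESeq2 called 0 of 35, against 0.00576% of all genes. At an unadjusted p under 0.05 there were 12 of the 13, against 2.74% of all genes. The S-PRT means of these 12 are carried by S-PRT 1 and S-PRT 4. The genes rise in the same libraries and are not independent, so the count is given as a description. The median log2 difference was -3.72 over the 13, with 1 positive and 12 negative, against -0.02 over all genes. For Krt26 it was -3.72 (SE 1.07, adjusted p = 0.999) and, without S-PRT 1 and S-PRT 4, 0.08. For Tchh it was -3.52 (SE 1.04, adjusted p = 0.999) and, without those libraries, 0.16. For Hoxc13 it was -0.58 (SE 0.25, adjusted p = 0.999) and, without them, 0.00. The F-PRT and S-PRT comparisons with Untreated skin share the Untreated libraries.

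Other hair genes, 17 shaft and sheath genes outside the set, followed S-PRT 1 in the same way, with 16 of 17 highest there. Their summed level was 26.27 to 36.38 TPM in F-PRT, 19.11 to 361.3 TPM in S-PRT and 17.64 to 33.22 TPM in Untreated libraries. S100a3, a calcium-binding protein of the hair cuticle, was at 97.41 TPM in S-PRT 1 and at 6.64 TPM or less elsewhere. Gprc5d, an orphan receptor of the hair cortex, was at 19.11 TPM there and at 0.89 TPM or less elsewhere. Other genes of the list were less distinct. Krt75 was at 30.82 TPM in S-PRT 1 and 27.31 TPM in S-PRT 4. Tgm3, the exception, was at 8.79 TPM in S-PRT 1 and highest in S-PRT 4, at 17.18 TPM. Of the 8 tested, 0 passed by edgeR in F-PRT against Untreated skin, where 2.39% of all genes passed. Of these 8, 0 had an unadjusted p under 0.05, against 14.9% of all genes, and the median log2 was 0.23. In S-PRT against Untreated skin 0 of the 8 passed, against 4.34% of all genes. There 4 had an unadjusted p under 0.05, against 16.8% of all genes, and the median log2 was 1.48. DESeq2, which gave an adjusted p to 14 of the 17, called 0 in F-PRT against Untreated skin, against 4.11% of all genes. In S-PRT against Untreated skin it called 7, where it called 1410 of 21236 genes (6.64%). The 18 regulators of follicle growth varied less, with 235.0 to 282.1 TPM in F-PRT, 248.2 to 419.1 TPM in S-PRT and 188.8 to 429.6 TPM in Untreated libraries, and 10 of the 18 highest in S-PRT 1. Gata3 was highest in Untreated 1, at 118.7 TPM, against 94.97 TPM in S-PRT 1. Hr was at 98.99 TPM in S-PRT 1 and 98.34 TPM in Untreated 1. Shh, the signal made by the follicle matrix, had 3, 0, 4 and 0 counts in F-PRT, 45, 5, 0 and 70 counts in S-PRT, and 11, 3, 36 and 2 counts in Untreated libraries. Its counts were highest in S-PRT 4, S-PRT 1 and Untreated 3, the same 3 libraries as for Krt35, and F-PRT 4 had none.

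Markers of other cells moved with some of these libraries. All 10 skeletal muscle genes were highest in S-PRT 1, and their summed level was 133.3 to 2570 TPM in F-PRT, 188.5 to 10610 TPM in S-PRT and 3.73 to 1732 TPM in Untreated libraries; S-PRT 4 and F-PRT 4, next for the hair genes, were at 188.5 and 133.3 TPM. Melanocyte genes, whose pigment is delivered to the growing shaft, were highest in S-PRT 1 for 9 of 10, with 31.44 to 42.35 TPM in F-PRT, 10.59 to 59.67 TPM in S-PRT and 13.84 to 25.41 TPM in Untreated libraries. S-PRT 4 was the lowest library for melanocyte genes. Of the 10 cell division genes 0 were highest in S-PRT 1, and their sums were 30.31 to 62.43 TPM in F-PRT, 33.48 to 69.59 TPM in S-PRT and 48.05 to 98.09 TPM in Untreated libraries. Dermal papilla genes stood at 52.68 to 74.39 TPM in F-PRT, 41.77 to 81.21 TPM in S-PRT and 31.56 to 65.01 TPM in Untreated libraries, and outer root sheath and bulge genes at 2885 to 3819, 2882 to 7381 and 1996 to 5988 TPM in the same groups. No gene of these lists was at 0 in all 12 libraries. The part of these other cells in the levels of the hair genes was not tested.

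**Figure D5:**
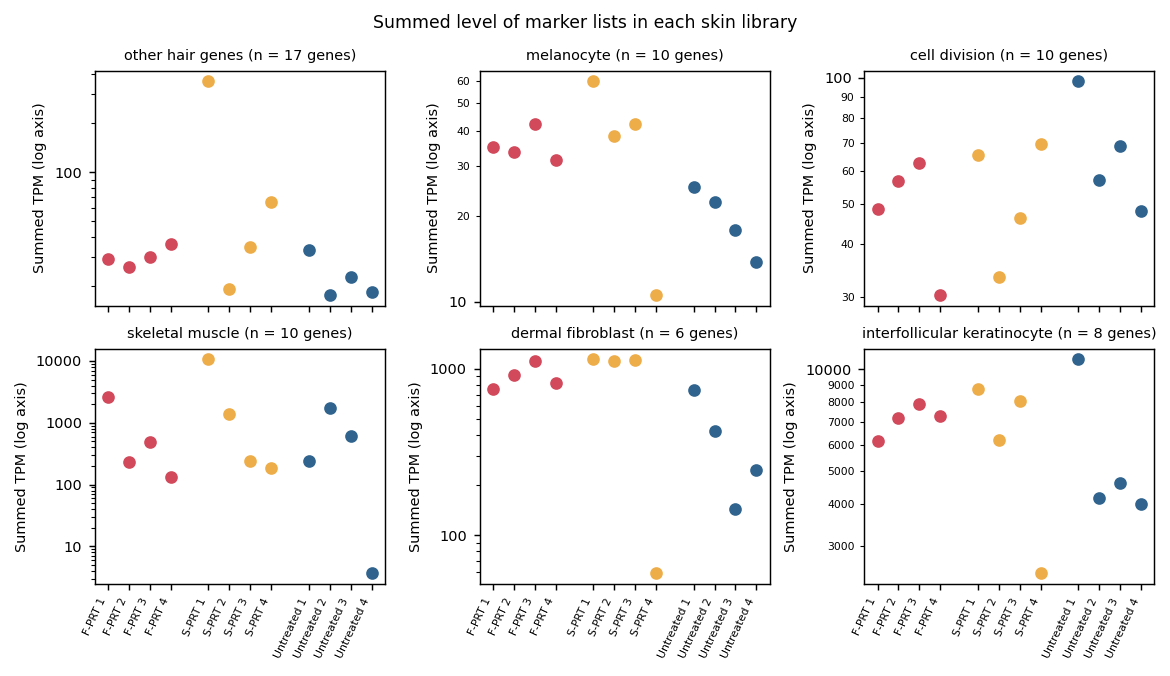
Summed TPM (y axis, log scale) of 6 marker lists in each skin library (x axis); red points are F-PRT, yellow S-PRT and blue Untreated libraries. S-PRT 1 is highest for other hair genes (361.3 TPM), melanocyte (59.67 TPM) and skeletal muscle genes (10610 TPM), and S-PRT 4 is lowest for dermal fibroblast genes (59.17 TPM).

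Single genes of some of these lists passed in the comparisons with Untreated skin, where 2.39% of all genes passed in F-PRT and 4.34% in S-PRT. Lgr6, a marker of follicle stem cells, fell by 0.71 on the log2 scale in F-PRT (SE 0.15, adjusted p = 0.032) and by 0.66 in S-PRT skin (SE 0.15, adjusted p = 0.0323). It was the single gene past the test among 10 outer root sheath and bulge genes in each comparison, and its call was lost in 8 of 19 alternatives for F-PRT and in 9 of 19 for S-PRT, the replicate block among them. Rspo3, a Wnt amplifier of the dermal papilla, rose in S-PRT skin (log2 1.10, SE 0.27, adjusted p = 0.0369), 1 of 10 papilla genes, but lost its call in 11 of 19 alternatives, among them those without S-PRT 1. In the sebaceous gland, which empties into the follicle, Mc5r fell by 1.83 in F-PRT (SE 0.35, adjusted p = 0.0147) and by 2.63 in S-PRT skin (SE 0.36, adjusted p = 0.00121), and Elovl3 fell by 1.93 in S-PRT skin (SE 0.42, adjusted p = 0.0209), of 4 genes. S-PRT 4 was the lowest library for the 4 sebaceous genes, with 62.56 TPM, where the other S-PRT libraries held 308.3 to 530.8 TPM, and Untreated libraries 577.3 to 946.5 TPM. Without it both falls in S-PRT skin still passed, Mc5r by 2.34 (SE 0.25, adjusted p = 0.000218) and Elovl3 by 1.60 (SE 0.25, adjusted p = 0.00219). The F-PRT call of Mc5r was lost without F-PRT 1, 3 or 4 or Untreated 2. The S-PRT call of Elovl3 was lost without S-PRT 1 or Untreated 2 and with the compared libraries alone. Flg, the filaggrin gene of the epidermis, rose in F-PRT skin (log2 1.39, SE 0.24, adjusted p = 0.0078), 1 of 8 epidermal genes. Of the 65 genes tested in the growth regulator, melanocyte, cell division, muscle, fibroblast, endothelial, adipocyte and immune lists, 0 passed by edgeR in F-PRT against Untreated skin (16 at an unadjusted p under 0.05, against 14.9% of all genes) and 0 in S-PRT against Untreated skin (15 unadjusted, against 16.8% of all genes). DESeq2, which gave an adjusted p to 70 genes of these lists, called 4 in F-PRT (5.71%, against 4.11% of all genes) and 3 in S-PRT against Untreated skin (4.29%, against 6.64%).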

How the data were processed

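RNA from skin and bone was polyA-selected and sequenced by the authors as paired reads of 150 bases, per the labels' protocols. RSEM, STAR, cutadapt and FastQC, with GRCm38 as the build, are listed in the submitters' processing notes, without versions; the strand setting was not stated. Each deposited table holds, per the file headers, an expected count, TPM and FPKM for each gene. FPKM values of the deposited tables were not used. GENCODE M21 gave symbols and positions for 55144 of 55471 identifiers. No protein table was used, so Krtap classes follow family number (4, 5, 9, 10, 12 and 17 ultra-high sulfur, and 6, 7, 8, 16 and 19 to 22 high glycine-tyrosine). The composition of the proteins was not checked, so sums, shares and ratios by class hold for this assignment only. Krtap16-1, the 1 glycine-tyrosine gene by number on chromosome 11, supplied 558 of the 4275.26 counts of that class in S-PRT 1.

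The genes, marker lists and tests were chosen with earlier results of these data known. Expected counts were rounded and fitted for the 12 skin libraries with edgeR 4.0.16 (R 4.3.3; quasi-likelihood F test, TMM scaling, filterByExpr, Benjamini-Hochberg adjustment over 19038 genes, threshold 0.05). TPM values entered no test. Alternatives were RLE scaling, no filter, DESeq2 1.42.0, a replicate block, the 8 compared libraries alone, each library left out, and S-PRT 4 with Untreated 1 left out (both stand apart in their markers); S-PRT 1 with S-PRT 4 left out was added after the data were seen. The genes named are the listed ones, the 3 Krtap genes of highest mean TPM in each class, and those past the test. Krtap3-3, Krtap13, Krtap14, Krtap16-1, S100a3, Gprc5d, Krt75, Tgm3, Gata3, Hr and Shh were chosen after their values were seen. The same holds for the genes without counts outside S-PRT 1 and Krtap genes named in alternatives.

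Replicate libraries differed by more than counting error (chi-square per degree of freedom at least 11.9), so none was the same library deposited again. Counts were simulated with the mean levels, depth and spread of all 12 skin libraries (19038 genes, 200 changed in F-PRT). In F-PRT against Untreated the fit recovered 50% of 2-fold and 91% of 4-fold changes. The sign was right for 100% of those called, with 2 false calls. The changed genes were drawn only from the better expressed genes, so these rates do not describe genes of few counts or wide spread, as most of the set are. Intervals and the floor of 3 counts cover counting error only.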

Additional observations from a re-analysis of the deposited data

Results flagged for a closer look

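In each group of 4 libraries the gap between the highest or lowest value and its nearest neighbour was compared with the whole range (Dixon's criterion) for 33 levels, 99 values in all. It was exceeded 64 times. Chance exceeds it in about 1 in 20 groups of normally distributed values. That rate does not hold where all values but 1 are 0, as for Krt82 in the Untreated libraries (0.02 TPM in Untreated 3). These genes also rise in the same libraries, so the levels are not independent.

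In the F-PRT group 23 levels set F-PRT 4 apart, each above the other libraries. The sums were 99.8 TPM for the whole set, 10.6 TPM for inner root sheath, 6.13 TPM for hair keratins, 18.8 TPM for high sulfur genes without Krtap3-2, 7.86 TPM for ultra-high sulfur and 28.2 TPM for high glycine-tyrosine genes. Among listed genes these were Krt25 at 1.28, Krt27 at 1.68, Krt71 at 3.05, Krt72 at 0.9, Tchh at 2.04, Krt31 at 0.99, Krt34 at 1.42, Krt81 at 0.8 and Krt86 at 1.21 TPM. Among Krtap genes they were Krtap3-1 at 2.48, Krtap15 at 4.89, Krtap4-1 at 0.56, Krtap4-6 at 0.59, Krtap9-3 at 3.08, Krtap7-1 at 3.53, Krtap19-9b at 3.07 and Krtap22-2 at 7.48 TPM.

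In the S-PRT group 29 levels set S-PRT 1 apart, each above the others. The sums were 2080 TPM for the whole set, 530 TPM for inner root sheath, 100 TPM for hair keratins, 469 TPM for high sulfur genes without Krtap3-2, 368 TPM for ultra-high sulfur and 531 TPM for high glycine-tyrosine genes. Among sheath genes these were Krt25 at 108, Krt26 at 11.7, Krt27 at 86.9, Krt28 at 20.6, Krt71 at 166, Krt72 at 45.5, Krt73 at 22.4, Tchh at 61.8 and Padi3 at 7.38 TPM. Among hair keratins they were Krt31 at 14.0, Krt32 at 6.18, Krt34 at 34.1, Krt81 at 12.2, Krt82 at 1.4 and Krt86 at 20.3 TPM. Among Krtap genes they were Krtap3-1 at 92.0, Krtap15 at 101, Krtap4-1 at 49.4, Krtap4-6 at 39.1, Krtap9-3 at 46.4, Krtap7-1 at 92.0, Krtap19-9b at 70.0 and Krtap22-2 at 109 TPM. Krt35 was not set apart there, since S-PRT 4 was close to S-PRT 1.

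In the Untreated group 7 levels set Untreated 3 apart, with 10.7 TPM of summed inner root sheath genes, Krt25 at 3.37, Krt35 at 1.3, Krt71 at 2.92, Krt73 at 1.17, Krt82 at 0.02 and Krtap19-9b at 0.13 TPM. Untreated 4 was set apart by 4 levels, Krt81 at 0.06, Krt86 at 0.02, Krtap7-1 at 0.41 and Krtap22-2 at 0.17 TPM. Untreated 2 was set apart by 1 level, Krt72 at 0.0 TPM, below the others. Values under 0.2 TPM rest on a few reads.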

How the results depend on the processing

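With n = 4 per group and most of the 76 genes at a few reads outside S-PRT 1, S-PRT 4 and F-PRT 4, depth limits what can be read from single Krtap genes, and the spread within groups limits the sheath genes. The S-PRT 1 level of the whole set stood 51.9 times above the median of the 12 libraries in TPM, 34.2 times in CPM, 49.3 times for the Krtap genes alone, 659 times for these without Krtap3-2, 67.0 times for the listed genes, and 2.57 to 53.6 times when each library was left out, the lowest without S-PRT 1.

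Genes past the test in F-PRT against Untreated skin were 455, and 873 with DESeq2, 299 with the replicate block, 1215 with the 8 libraries compared, 2704 without S-PRT 4 and Untreated 1, 1449 without S-PRT 1 and S-PRT 4, and 216 to 1477 leaving out each library, the highest without S-PRT 4. In S-PRT against Untreated skin they were 827, and 1410 with DESeq2, 305 with the 8 libraries, 4509 without S-PRT 4 and Untreated 1, 1304 without S-PRT 1 and S-PRT 4, and 452 to 2270 leaving out each library. In F-PRT against S-PRT they were 0 (522 at an unadjusted p under 0.05), 2 with DESeq2, and 0 to 1 leaving out each library. Members of the set past the test in F-PRT against Untreated skin were 0, and 1 with the 8 libraries (Krtap3-2, with Krt26 not tested) or without S-PRT 1 and S-PRT 4 (Krt26). In S-PRT against Untreated skin they were 1, and 2 with no filter, 7 with DESeq2, 0 with the block or the 8 libraries, 4 without S-PRT 4 and Untreated 1 (Krt26, Krtap3-2, Msx2, Tchh), 1 without S-PRT 1 and S-PRT 4, and 0 to 6 leaving out each library, the highest without S-PRT 2.

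Signs turned in 17 cases. In F-PRT against Untreated skin Tchh was at log2 -0.14 without F-PRT 4 (up to 0.67, without Untreated 3), and Msx2 at 0.10 without Untreated 1 (-0.20 at the lowest) and 0.11 without S-PRT 4 and Untreated 1. In S-PRT against Untreated skin the 8 changes without S-PRT 1 and S-PRT 4 were Krt25 -1.17, Krt27 -0.36, Krt28 -1.34, Krt32 -0.01, Krt35 -3.02, Krt71 -0.55, Krt73 -2.33 and Padi3 -0.20. In F-PRT against S-PRT Krtap3-2 was at -0.07 without S-PRT 2, -0.22 without S-PRT 4 (up to 0.61, without S-PRT 1) and -0.22 without S-PRT 4 and Untreated 1, and without S-PRT 1 and S-PRT 4 Krt26 was at 0.08, Tchh at 0.16 and Hoxc13 at 0.00. Beyond the libraries left out, the cause was not tested. Same-numbered libraries of different groups correlated at -0.343 to 0.372 in their deviations from the group means, and differently numbered ones at -0.457 to 0.401. These values show no sign that the replicate numbers pair the libraries, but they cannot exclude a shared batch. With the number as a block, Krt26, the only member of the set with a call in the main fit, lost it.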
